A study of Homo sapiens with 12 samples.

Results

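OLFM4 encodes a secreted glycoprotein of the olfactomedin family, a group of mostly secreted proteins that share a carboxy-terminal olfactomedin domain. In human intestine OLFM4 marks the stem cells at the crypt base, in mouse intestine its expression depends on Notch signalling, and in blood it is stored in the granules of a subset of neutrophils. Notch receptors are cut after ligand binding, the released intracellular domain enters the nucleus, and there it turns the DNA-binding protein RBPJ from a repressor into an activator. The 8 family members followed here were OLFM4, OLFM1, OLFM2, OLFM3, OLFML1, OLFML2A, OLFML2B and OLFML3. They were found by gene symbol, through every probe set (a group of short probes summarised as 1 value) that the platform annotation assigns to 1 of these genes and to no other. That gave 11 probe sets of 54613 tested, or 8 genes of 19775. OLFM4 itself was picked because its signal was already known to climb in steps across these arrays, so its values are described without a test, while the other 7 genes were chosen by family name.

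The cells were MCF-10A, an established non-tumorigenic line of human mammary epithelium, profiled as bulk RNA 48 h after retroviral infection. There were 4 groups with 3 arrays each. The first carried NICD, the free intracellular domain of NOTCH1, the second Notch1 L1601P+∆P, the third wild-type full-length Notch1, and the last the vector control. L1601P is a substitution in the domain that keeps the receptor closed before ligand binds, and ∆P stands for loss of the PEST region that limits the life of the intracellular domain; alterations of both kinds are known from T-cell leukaemia. Replicates are labelled biological with no further detail, so each p-value reflects only how far these samples scatter, which may be technical. The short name of the NICD samples also holds gfp, without saying what it refers to.

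Values are the authors' deposited RMA signals on the log2 scale, which ran from 2.27 to 15.01, with array medians between 5.64 and 5.69. Differences are log2, group means carry the SD over 3 arrays, and a difference carries the standard error of the limma fit. A probe set was called at a limma p under 0.05 after Benjamini-Hochberg adjustment over all probe sets tested. Precision is limited by how many arrays there are. Of the 10 basal mammary epithelial markers listed, 7 were analysed, and their mean log2 signal per array was 11.14 to 11.28 with NICD, 11.70 to 11.74 with Notch1 L1601P+∆P, 11.82 to 11.84 with full-length Notch1 and 11.72 to 11.80 with vector. They moved both ways with NICD against vector: the keratins KRT5 and KRT14 were called higher, by 0.58 and 0.57, and ITGB4, LAMB3, ITGA6 and EGFR lower, at -1.97, -1.44, -1.07 and -0.72. Of the NOTCH1 probe sets, the one that differed most between constructs and vector read 8.79 ± 0.04 with NICD, 8.74 ± 0.02 with Notch1 L1601P+∆P and 9.16 ± 0.04 with full-length Notch1, against 6.54 ± 0.20 with vector. The other NOTCH1 probe set read 9.72 ± 0.10 with NICD, 9.50 ± 0.05 with Notch1 L1601P+∆P and 9.52 ± 0.03 with full-length Notch1, against 9.44 ± 0.06 with vector, and was called higher with NICD than with vector (limma adjusted p = 0.00881).

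The promoter of OLFM4 is shown first because RBPJ, the DNA-binding partner of NICD, is known to prefer the core TGGGAA. The form with a further base in front, GTGGGAA, is called the longer form here. OLFM3 is shown because its window was the other one in the family that holds the longer form, and OLFML3 because it is the 1 member of the 7 tested with a called difference. Each window runs from 250 bases before to 50 bases after the annotated start, from RefSeq on GRCh38.p14. Capitals mark matches on either strand to either RBPJ form or to the AP-1 motif, TGANTCA. The positions are chr13:53028563-53028862 on the plus strand for OLFM4, chr1:101846939-101847238 on the minus strand for OLFM3, and chr1:113979224-113979523 on the plus strand for OLFML3.
OLFM4: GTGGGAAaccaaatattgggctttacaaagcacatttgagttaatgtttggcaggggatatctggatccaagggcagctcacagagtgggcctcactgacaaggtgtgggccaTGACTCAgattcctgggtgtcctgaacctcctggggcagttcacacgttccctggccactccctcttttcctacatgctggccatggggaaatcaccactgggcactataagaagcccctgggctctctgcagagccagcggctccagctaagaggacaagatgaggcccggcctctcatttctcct
OLFM3: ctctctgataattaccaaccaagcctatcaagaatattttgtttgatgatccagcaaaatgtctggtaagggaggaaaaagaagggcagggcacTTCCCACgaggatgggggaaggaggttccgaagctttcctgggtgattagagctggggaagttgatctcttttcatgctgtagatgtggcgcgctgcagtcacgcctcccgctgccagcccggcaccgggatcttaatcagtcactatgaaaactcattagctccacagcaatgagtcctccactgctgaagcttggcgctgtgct
OLFML3: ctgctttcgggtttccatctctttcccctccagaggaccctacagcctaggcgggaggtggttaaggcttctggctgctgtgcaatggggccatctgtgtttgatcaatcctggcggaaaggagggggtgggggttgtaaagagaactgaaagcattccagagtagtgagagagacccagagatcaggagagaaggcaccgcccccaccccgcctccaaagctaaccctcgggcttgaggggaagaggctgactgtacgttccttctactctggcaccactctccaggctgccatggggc
In the OLFM4 window the longer RBPJ motif occupies the first bases, starting at position -250 from the annotated start, and contains the core. A match to the AP-1 motif, the site of FOS and JUN dimers, starts at -137. In the OLFM3 window the longer RBPJ motif lies on the opposite strand, with its leftmost base at -156. The OLFML3 window holds none of the 3 motifs.

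Matches to the core were common, and matches to the longer form or the AP-1 motif were less so. The core was found in 24.0% of 35116 promoter windows of this length, the longer form in 6.25% and the AP-1 motif in 7.71%. The PU.1 motif GAGGAA, found in 27.9% of windows, and the NF-kB consensus, found in 11.3%, had no match in the OLFM4 window. Across the family, 12 windows of 7 genes were available, and 3 of these 12 windows held the core, in OLFM2, OLFM3 and OLFM4. The match is a description of the letters in these windows and says nothing about binding.

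OLFM4 signal formed 4 separate levels. With NICD the arrays read 13.48, 13.37 and 13.45. With Notch1 L1601P+∆P they read 10.13, 10.04 and 10.37. With full-length Notch1 they read 5.68, 5.98 and 5.92, against 3.51, 3.42 and 3.93 with vector. Every NICD array lay above every Notch1 L1601P+∆P array, these above every full-length Notch1 array, and these above every vector array. Group means were 13.43 ± 0.06 with NICD, 10.18 ± 0.17 with Notch1 L1601P+∆P, 5.86 ± 0.16 with full-length Notch1 and 3.62 ± 0.27 with vector (SD, n = 3 each).

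**Figure D1:**
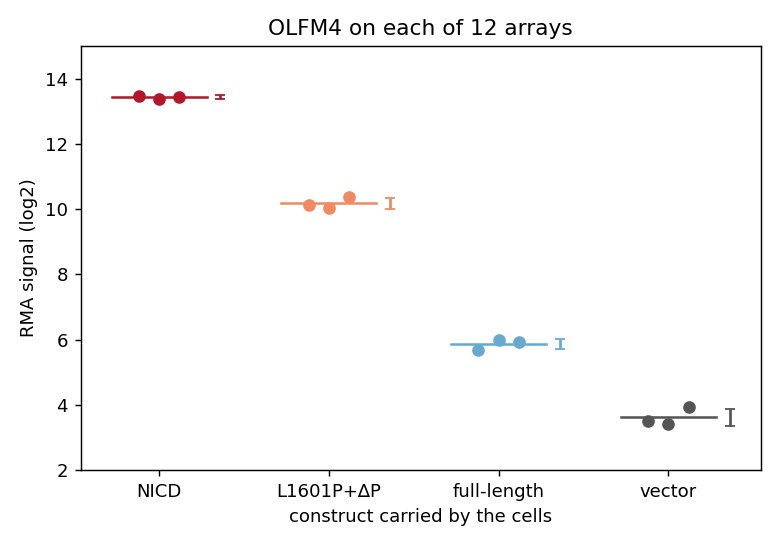
OLFM4 RMA signal (log2, vertical axis) on each of the 12 arrays, by the construct the cells carried. Points are arrays, horizontal lines group means and bars beside them the SD over 3 arrays; the 4 groups do not overlap, with means of 13.43, 10.18, 5.86 and 3.62 from left to right.

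Against vector, OLFM4 was higher by 9.81 ± 0.13 with NICD, by 6.56 ± 0.13 with Notch1 L1601P+∆P and by 2.24 ± 0.13 with full-length Notch1 (log2 difference ± standard error). On the linear scale of the signal these are 899.7-fold, 94.3-fold and 4.73-fold. Array signals are compressed at the dim end, so differences of dim probe sets, the vector level of OLFM4 included, may be understated. Between neighbouring levels, NICD exceeded Notch1 L1601P+∆P by 3.25 ± 0.13, and Notch1 L1601P+∆P exceeded full-length Notch1 by 4.32 ± 0.13. Full-length Notch1 exceeded vector by 2.24, from the dimmest level, so the sizes of the steps are not ranked. Of the NOTCH1 probe sets, the one given above was highest with full-length Notch1 and the other with NICD.

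Among the 19775 genes, each read by its probe set of highest mean, the OLFM4 difference ranked 1 from the top for NICD against vector, 2 for Notch1 L1601P+∆P against vector and 2 for full-length Notch1 against vector. It ranked 1 for NICD against full-length Notch1 and 1 for Notch1 L1601P+∆P against full-length Notch1, and 24 for NICD against Notch1 L1601P+∆P. The gene ahead of it in both receptor comparisons with vector was PLA2G2A, a secreted phospholipase, at 6.64 with Notch1 L1601P+∆P and 3.25 with full-length Notch1. These ranks describe the choice of the gene and are not evidence of their own. As 1 summary of a bulk sample, the signal cannot tell apart more OLFM4 RNA per cell and more cells that make it.

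With full-length Notch1 against vector, 6 probe sets of 54613, or 0.011%, were past the limma threshold. OLFM4 is among them by the way it was chosen, and nothing is read from it. The other 5 were those of PLA2G2A, NOTCH1 and SERPINA3 upward and a pair of RAP1A downward. With an intensity trend in the variance model the count was 29. SERPINA3, a secreted protease inhibitor of the acute phase, read 11.41, 11.38 and 11.30 with full-length Notch1, against 10.93, 10.78 and 10.73 with vector, a rise of 0.55 ± 0.07 (limma adjusted p = 0.0163). This call was lost under 6 of 18 alternatives, namely the fit of only the groups compared and leaving out any full-length Notch1 array or vector replicate 2 or 3 (highest adjusted p = 0.488), with differences of 0.51 to 0.61 over the alternatives.

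The other family members stayed near their vector level. Across their 10 probe sets, single arrays read between 2.64 and 6.21, and the SD within a group was 0.01 to 0.37. No detection calls were used here, so it is not known which of these signals stand above the array's background. Against vector, limma called 0 of 10 probe sets in each of the 3 comparisons, where 19.3% of all probe sets were called with NICD, 2.39% with Notch1 L1601P+∆P and 0.011% with full-length Notch1. Without adjustment, p was under 0.05 for 2 higher and 0 lower probe sets with NICD, for 1 higher and 0 lower with Notch1 L1601P+∆P, and for 0 with full-length Notch1. Between constructs, 0 of 10 were called for NICD against Notch1 L1601P+∆P (1 without adjustment; 13.0% of all probe sets called) and 0 for Notch1 L1601P+∆P against full-length Notch1 (1 without adjustment; 1.63% called), while 1 was called for NICD against full-length Notch1 (18.2% called). The share of all probe sets at an unadjusted p under 0.05 was not counted, so nothing is read from unadjusted counts here or below. The shares called are over all probe sets and are not matched for brightness. With dim probe sets left out, 10942 of 27306 were called for NICD against vector in a separate fit, which tested 1 of the 10. No other tool was run.

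**Figure D2:**
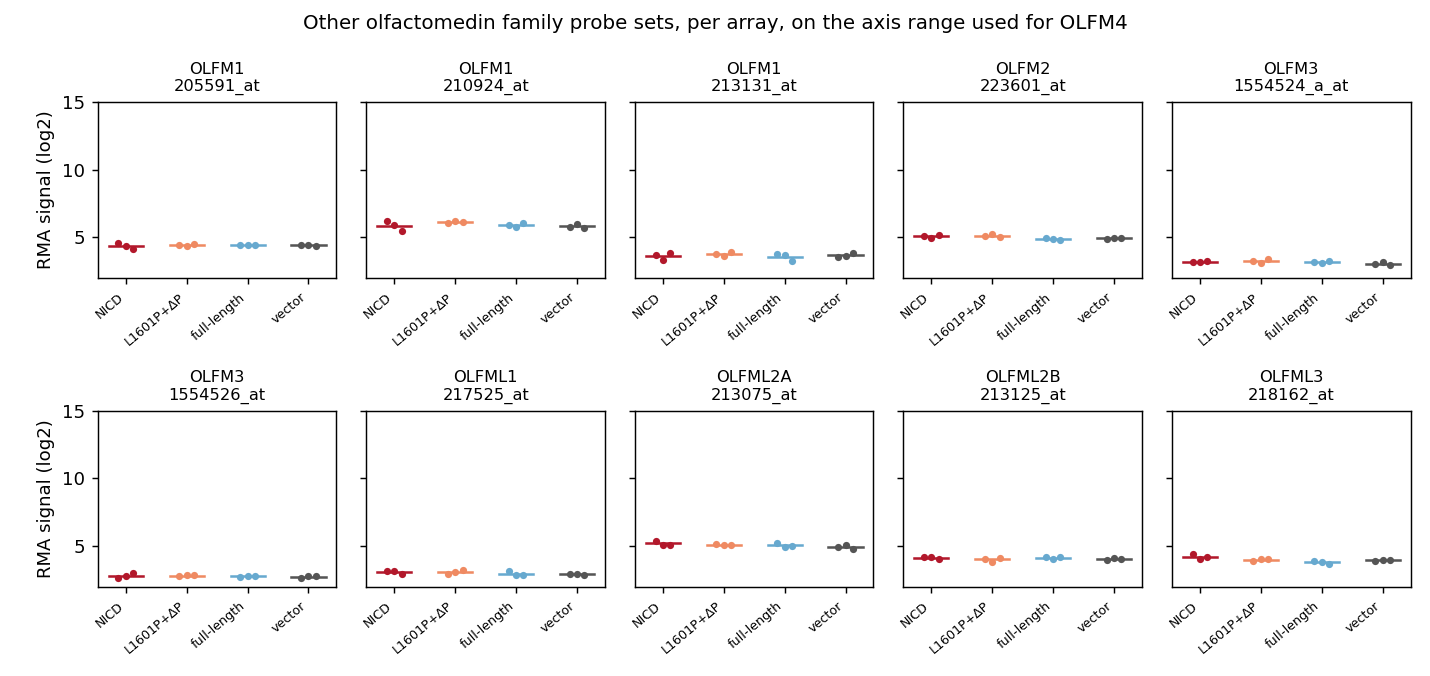
RMA signal (log2) of the 10 probe sets of the other 7 family genes on each of the 12 arrays, on the vertical range used for OLFM4. Points are arrays and lines group means; all values lie between 2.64 and 6.21 and no panel shows the 4 separate levels seen for OLFM4.

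These intervals describe the signals and do not bound the change in RNA where a probe set may sit at background. The differences from vector ran from -0.06 to 0.26 with NICD, with a median of 0.11, where the median of all genes was -0.02. They ran from -0.02 to 0.29 with Notch1 L1601P+∆P, with a median of 0.14, and from -0.15 to 0.13 with full-length Notch1, with a median of 0.04. The median of all genes was -0.01 with Notch1 L1601P+∆P and -0.01 with full-length Notch1. Medians of all genes cover bright and dim genes alike, so they are not matched to the mostly dim family probe sets. The highest upper limit of a 95% interval was 0.49 with NICD, for OLFML2A, 0.63 with Notch1 L1601P+∆P, for OLFM1, and 0.41 with full-length Notch1, for OLFM1. The lowest lower limits were -0.38, -0.23 and -0.45 in the same order, all for OLFM1.

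**Figure D3:**
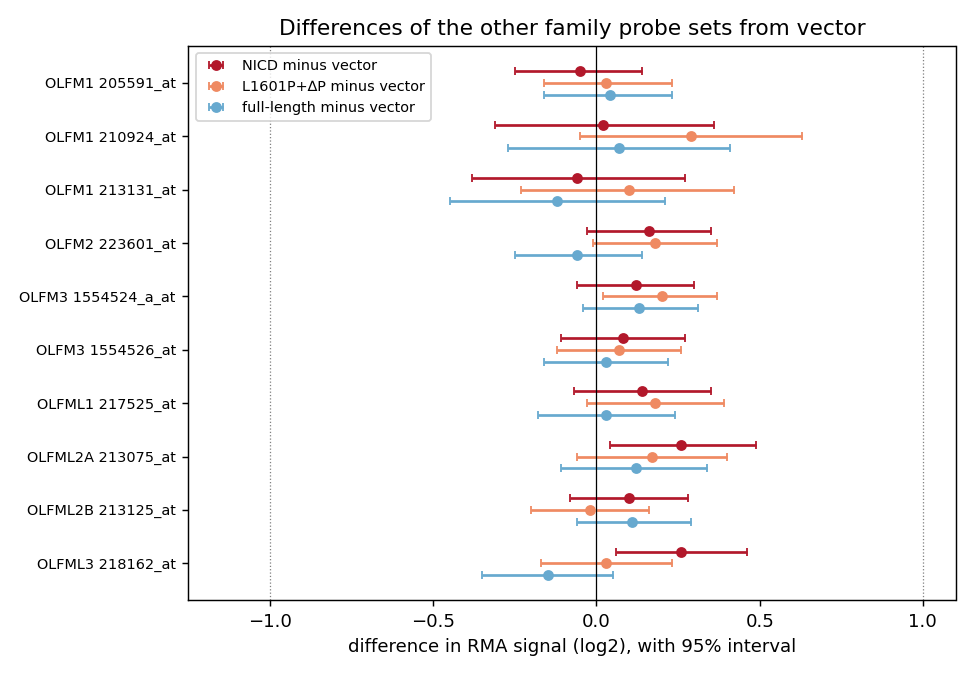
Difference of each of the 10 other family probe sets from vector (log2, horizontal axis) with its 95% interval, for NICD, Notch1 L1601P+∆P and full-length Notch1 from top to bottom within a row. Dotted lines mark differences of -1 and 1; the intervals extend no further than -0.45 and 0.63.

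OLFM1, OLFM2 and OLFM3 form the noelin branch, secreted proteins of the nervous system that bind neuronal surface receptors. OLFM1, which binds the Nogo receptor, was read by 3 probe sets that share a gene and are not replicates. The one of highest mean read 6.18, 5.91 and 5.46 with NICD, 6.03, 6.21 and 6.10 with Notch1 L1601P+∆P, and 5.89, 5.73 and 6.07 with full-length Notch1, against 5.77, 6.02 and 5.68 with vector. The NICD arrays overlapped those of every other group. The Notch1 L1601P+∆P arrays lay just above the vector arrays, and 24% of all probe sets had no overlap there in either direction. The difference of this OLFM1 probe set was 0.02 ± 0.16 with NICD (limma adjusted p = 0.944) and 0.29 ± 0.16 with Notch1 L1601P+∆P (limma adjusted p = 0.381). The remaining OLFM1 probe sets differed by -0.05 ± 0.09 and -0.06 ± 0.15 with NICD. OLFM2, which is found with AMPA-type glutamate receptors, read 5.12, 4.92 and 5.21 with NICD, 5.07, 5.25 and 5.0 with Notch1 L1601P+∆P, and 4.98, 4.86 and 4.78 with full-length Notch1, against 4.87, 4.94 and 4.98 with vector.

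The OLFM2 arrays with Notch1 L1601P+∆P lay just above those with vector, which also held for 24.0% of all probe sets counted in either direction. Its differences of 0.16 ± 0.09 with NICD and 0.18 ± 0.09 with Notch1 L1601P+∆P were not called (limma adjusted p = 0.268 and 0.341). OLFM3, also named optimedin, had 2 probe sets, with means of 3.19 ± 0.05 and 2.82 ± 0.19 with NICD, against 3.07 ± 0.13 and 2.74 ± 0.09 with vector. Its window holds the longer RBPJ motif, as printed above, and its largest difference in any comparison with vector was 0.20 ± 0.08, with Notch1 L1601P+∆P (limma adjusted p = 0.254).

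OLFML2A and OLFML2B are the photomedins, which in mouse bind chondroitin sulphate. OLFML2A read 5.41, 5.12 and 5.06 with NICD, 5.14, 5.07 and 5.10 with Notch1 L1601P+∆P, and 5.21, 4.90 and 5.04 with full-length Notch1, against 4.90, 5.09 and 4.82 with vector. Its difference of 0.26 ± 0.10 with NICD was not called (limma adjusted p = 0.106), and the NICD and vector arrays overlapped. OLFML2B differed by 0.10 ± 0.08 with NICD (limma adjusted p = 0.475), from means of 4.14 ± 0.05 with NICD and 4.04 ± 0.08 with vector. OLFML1, a secreted member about which less is known, had means of 3.07 ± 0.14 with NICD and 2.93 ± 0.04 with vector, a difference of 0.14 ± 0.10 (limma adjusted p = 0.382).

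OLFML3 was the 1 member of the 7 tested with a called difference. It is a secreted protein that binds BMP4 in mouse and in frog brings the protease BMP1 together with its substrate chordin. Its arrays read 4.40, 4.03 and 4.18 with NICD, 3.88, 4.05 and 4.02 with Notch1 L1601P+∆P, and 3.87, 3.85 and 3.69 with full-length Notch1, against 3.88, 4.01 and 3.96 with vector. All NICD arrays lay above all full-length Notch1 arrays, and by a narrow margin above all vector arrays, which in either direction also held for 32.7% and 33.0% of all probe sets. Against full-length Notch1 the rise with NICD was 0.40 ± 0.09 (limma adjusted p = 0.00781), where 7.14% of all probe sets were called higher. Against vector the difference of 0.26 ± 0.09 missed the threshold (limma adjusted p = 0.0736), and against Notch1 L1601P+∆P so did 0.23 ± 0.09 (limma adjusted p = 0.143). Without NICD replicate 2, the lowest of the NICD arrays, those differences were 0.34 and 0.31 and were called (limma adjusted p = 0.0197 and 0.0428). The signal is dim, and the full-length Notch1 group stood at -0.15 ± 0.09 from vector (limma adjusted p = 0.979).

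Beyond the 8 members, 5 genes whose proteins carry an olfactomedin domain were followed: MYOC, a secreted protein of the eye's outflow tissue, GLDN, a Schwann cell protein of the node of Ranvier, and the adhesion receptors ADGRL1, ADGRL2 and ADGRL3. With NICD against vector, limma called 1 higher and 0 lower (unadjusted p under 0.05: 1 higher, 0 lower), where 8.46% of genes on their brightest probe set were called higher and 15.8% lower. ADGRL2 rose by 0.23 ± 0.07, from 8.54 ± 0.06 with NICD against 8.32 ± 0.07 with vector (limma adjusted p = 0.0316), and the call was lost under 5 of 18 alternatives, among them the fit of only the groups compared and leaving out NICD replicate 2 or 3 or vector replicate 2 or 3 (highest adjusted p = 0.103). MYOC differed by 0.20, GLDN by -0.05, ADGRL1 by -0.07 and ADGRL3 by -0.14, none of them called. With Notch1 L1601P+∆P and with full-length Notch1, 0 of the 5 were called by limma (0 at an unadjusted p under 0.05), where 1.64% of genes were called higher and 1.75% lower with Notch1 L1601P+∆P, and 0.0152% and 0.00506% with full-length Notch1.

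Of the 3 nearest genes with a probe set on each side of OLFM4 on chromosome 13, in the order of RefSeq on GRCh38.p14 and looked up after the OLFM4 values were known, 1 was called in a comparison with vector. Among all genes, 8.46% were called higher and 15.8% lower with NICD, 1.64% and 1.75% with Notch1 L1601P+∆P, and 0.0152% and 0.00506% with full-length Notch1. SUGT1, a co-chaperone, read 10.97 with NICD against 10.52 with vector, a rise of 0.45 ± 0.06 (limma adjusted p = 0.000155), and differed by -0.02 with Notch1 L1601P+∆P. CNMD and PCDH8 on that side differed by -0.01 and -0.17 with NICD, and LINC00558 and LINC00458 on the other side by -0.15 and 0.17. PCDH17 on that side read 4.98 ± 0.25 with NICD and 4.98 ± 0.00 with vector.

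The proteins reported to meet OLFM4 in cells, and the factors reported to control it, were followed as a list. With NICD against vector limma called 3 of these 9 genes higher and 0 lower (unadjusted p under 0.05: 3 higher, 1 lower), where 8.46% and 15.8% of all genes were, and their median difference was 0.01. It called 2 higher and 0 lower with Notch1 L1601P+∆P, with a median of 0.05, where 1.64% and 1.75% of all genes were called. With full-length Notch1 it called 0 in either direction (unadjusted p under 0.05: 1 higher, 0 lower), against 0.0152% and 0.00506% of all genes. CTSC, the protease cathepsin C that OLFM4 restrains in mouse neutrophils, read 12.13, 12.14 and 11.87 with NICD, 11.65, 11.70 and 11.65 with Notch1 L1601P+∆P, and 10.89, 10.90 and 10.88 with full-length Notch1, against 10.70, 10.79 and 10.69 with vector. Its 4 groups did not overlap. The share of all probe sets with 4 such groups was not counted, but for NICD against vector alone 33% did not overlap. CTSC rose by 1.32 ± 0.07 with NICD (limma adjusted p = 3.17e-08) and by 0.94 ± 0.07 with Notch1 L1601P+∆P (limma adjusted p = 1.17e-05). The difference of 0.17 ± 0.07 with full-length Notch1 was not called (limma adjusted p = 0.958).

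NOD2 and NOD1 sense fragments of bacterial cell wall and are bound by OLFM4 in the infected mouse stomach. NOD2 read 5.98, 5.86 and 5.96 with NICD, 5.41, 5.61 and 5.48 with Notch1 L1601P+∆P, and 4.69, 4.92 and 4.94 with full-length Notch1, against 4.90, 4.93 and 5.28 with vector. It rose by 0.90 ± 0.10 with NICD (limma adjusted p = 3.82e-05). It rose by 0.46 ± 0.10 with Notch1 L1601P+∆P (limma adjusted p = 0.0369), a call lost under 9 of 17 alternatives, among them cyclic loess, the fit of only the groups compared and the loss of any single Notch1 L1601P+∆P array, of vector replicate 1 or 2, full-length Notch1 replicate 2 or NICD replicate 1 (highest adjusted p = 0.15). NOD1 rose by 0.36 ± 0.10 with NICD (limma adjusted p = 0.0178), and this call was lost under 4 of 18 alternatives, which included leaving out NICD replicate 2 or 3 or vector replicate 3 (highest adjusted p = 0.0798).

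The remaining 6 genes of that list were not called against vector. NDUFA13, also known as GRIM-19, a respiratory chain subunit that binds OLFM4, differed by -0.02 with NICD, RBPJ by 0.06, and the NF-kB subunits RELA and NFKB1 by -0.04 and -0.13. RARA, the retinoic acid receptor through which OLFM4 is induced in myeloid cells, differed by 0.01. SPI1, which encodes PU.1, a myeloid factor that activates OLFM4, read 4.08 ± 0.07 with NICD and 4.08 ± 0.15 with vector.

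**Figure D4:**
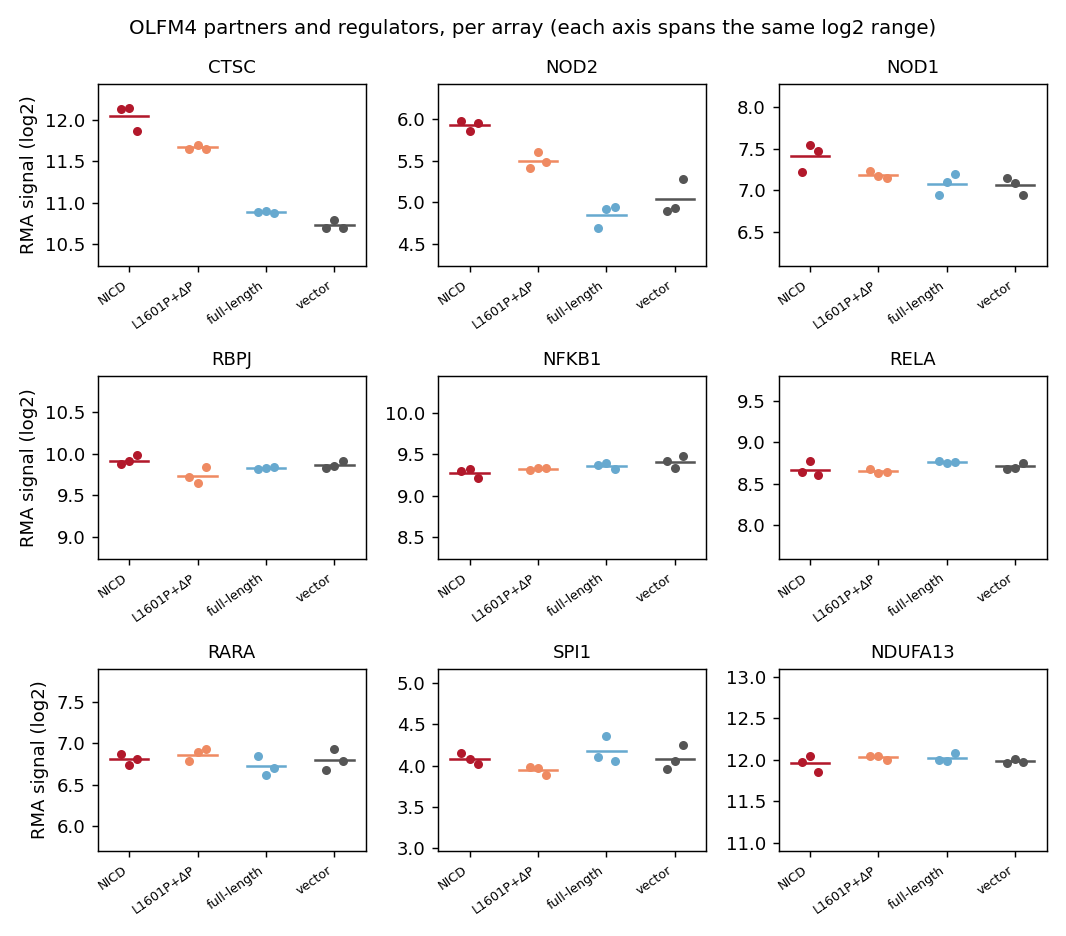
RMA signal (log2) of the 9 OLFM4 partners and regulators on each of the 12 arrays, each panel spanning the same log2 range. Points are arrays and lines group means; CTSC steps down from NICD (12.05) to vector (10.73), NOD2 is highest with NICD (5.93), and the lower 6 panels show little difference between groups.

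The retinoid pathway was examined because retinoic acid raises OLFM4 in myeloid cells. Of 17 listed genes 14 were analysed. With NICD against vector 4 rose and 3 fell (8.46% and 15.8% of all genes), with a median of -0.04. RDH10, which makes the retinoic acid precursor, rose by 1.14 ± 0.06, the retinoic acid carrier CRABP2 by 0.82 ± 0.11 and CYP26B1, which breaks retinoic acid down, by 0.79 ± 0.06. DHRS3, which returns the precursor to retinol, fell by 1.42 ± 0.09 and the partner receptor RXRA by 0.80 ± 0.08. ALDH1A3, which makes retinoic acid, fell by 0.49 ± 0.10, and its relative ALDH1A1 rose by 0.34, a call lost under 10 of 17 alternatives (highest adjusted p = 0.174). With Notch1 L1601P+∆P 0 rose by limma (1 at an unadjusted p under 0.05) and 1 fell, DHRS3, at -0.45 ± 0.09 (limma adjusted p = 0.0154), a call lost without Notch1 L1601P+∆P replicate 2 or 3 or vector replicate 2 or 3 (highest adjusted p = 0.0687). With full-length Notch1 0 were called (0 at an unadjusted p under 0.05). Of all genes, 1.64% were called higher and 1.75% lower with Notch1 L1601P+∆P, and 0.0152% and 0.00506% with full-length Notch1.

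RDH10 read 9.96, 9.99 and 9.92 with NICD, 8.90, 8.78 and 8.76 with Notch1 L1601P+∆P, and 8.91, 8.89 and 8.86 with full-length Notch1, against 8.78, 8.89 and 8.78 with vector. Its NICD arrays stood apart and those of the other groups overlapped. For NICD against vector, the arrays did not overlap for 33% of all probe sets.

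Genes that accompany OLFM4 in the intestinal crypt were followed next. Of 19 intestinal stem cell genes 17 were analysed, and with NICD against vector 1 rose and 6 fell (8.46% and 15.8% of all genes), with a median of -0.07. SOX9, a transcription factor of crypt progenitors, rose by 1.38 ± 0.07 with NICD (limma adjusted p = 1.21e-08) and by 0.63 ± 0.07 with Notch1 L1601P+∆P (limma adjusted p = 0.000217). RNF43 and ZNRF3, which remove Wnt receptors from the surface, fell by 0.70 ± 0.09 and 0.30 ± 0.06 with NICD. LRIG1, which restrains EGF receptors, differed by -0.34, and the MYC target CDCA7 by -0.27, both called. The LRIG1 call was lost under 6 of 18 alternatives: cyclic loess, the replicate block, and leaving out NICD replicate 2 or 3 or vector replicate 1 or 3 (highest adjusted p = 0.0971). LGR5, the defining stem cell receptor, read 4.92 with NICD and 4.84 with vector and was not called. The count of 6 that fell was 3 without NICD replicate 2 and 3 without vector replicate 3. Limma called 1 higher with Notch1 L1601P+∆P, SOX9, and 0 lower (unadjusted p under 0.05: 2 of each), where 1.64% and 1.75% of all genes were called. With full-length Notch1 it called 0 (also 0 without adjustment), against 0.0152% and 0.00506% of all genes.

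Of 15 intestinal secretory lineage genes, the cell types that Notch holds back in the intestine, 0 rose by limma with NICD (0 at an unadjusted p under 0.05) and 1 fell, where 8.46% and 15.8% of all genes did. It was AGR2, a protein folding factor of mucus-making cells, at -1.26 ± 0.16 (limma adjusted p = 6.49e-05). Of 17 neutrophil granule genes 16 were analysed, and with NICD limma called 1 higher and 0 lower (unadjusted p under 0.05: 1 higher, 1 lower), against the same shares. LTF, lactoferrin, read 6.26, 5.96 and 5.96 with NICD, against 5.10, 5.27 and 5.61 with vector, a rise of 0.73 ± 0.15 (limma adjusted p = 0.00302). With Notch1 L1601P+∆P and full-length Notch1 0 genes of these lists were called against vector by limma. The shares of all genes called higher and lower were 1.64% and 1.75% with Notch1 L1601P+∆P, and 0.0152% and 0.00506% with full-length Notch1. At an unadjusted p under 0.05 there were, in that order, 2 and 2 secretory genes higher. Granule genes were 4 and 1 higher, and 0 and 1 lower. The share of all genes under that unadjusted limit was not counted, so nothing is read from these counts.

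Markers of the cell types that normally make OLFM4 stayed near their vector level. The 8 neutrophil markers had a mean log2 signal per array of 4.54 to 4.67 with NICD, 4.70 to 4.75 with Notch1 L1601P+∆P, 4.63 to 4.79 with full-length Notch1 and 4.58 to 4.71 with vector. None was called against vector by limma (with NICD, unadjusted p under 0.05: 0 higher, 1 lower). The 6 intestinal epithelial markers had 5.59 to 5.64 with NICD and 5.50 to 5.56 with vector, and 1 was called with NICD, VIL1, at 0.36, and with Notch1 L1601P+∆P at 0.32, a call lost under 15 of 18 alternatives, among them the loss of any single array other than vector replicate 1 (highest adjusted p = 0.168). The part of cell types other than mammary epithelium in the OLFM4 values was not tested. Means over the 5 leukocyte markers analysed ranged from 5.09 to 5.17 with NICD and from 5.10 to 5.17 with vector. The 9 fibroblast markers had 6.26 to 6.33 with NICD and 6.15 to 6.26 with vector, with DCN called at 0.36, and of 5 endothelial markers KDR was called at 1.05. Against vector, 8.46% of all genes were called higher and 15.8% lower with NICD. These shares were 1.64% and 1.75% with Notch1 L1601P+∆P, and 0.0152% and 0.00506% with full-length Notch1.

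Partners of the other members were followed as well. Of 13 such genes 2 rose and 1 fell with NICD against vector (8.46% and 15.8% of all genes), with a median of -0.05. Limma called 0 with Notch1 L1601P+∆P or full-length Notch1 (0 at an unadjusted p under 0.05 in both). The shares of all genes called higher and lower were 1.64% and 1.75% with Notch1 L1601P+∆P, and 0.0152% and 0.00506% with full-length Notch1. BMP1, the protease that OLFML3 meets in frog, read 8.49, 8.41 and 8.33 with NICD, against 7.95, 7.88 and 8.07 with vector, and rose by 0.45 ± 0.09 (limma adjusted p = 0.00239). NGFR, a co-receptor of the Nogo receptor that OLFM1 binds, rose by 0.38 ± 0.09, and RTN4, which encodes Nogo, fell by 0.43 ± 0.06 with NICD.

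Of 15 genes known as Notch targets, limma called 8 higher and 3 lower with NICD against vector (8.46% and 15.8% of all genes), 7 higher and 2 lower with Notch1 L1601P+∆P (1.64% and 1.75%), and 0 with full-length Notch1 (0.0152% and 0.00506%; 1 higher at an unadjusted p under 0.05). With Notch1 L1601P+∆P the lower calls, DTX4 and LFNG, were lost under 12 and 5 of 18 alternatives and the higher call of NOTCH3 under 7. Leaving out any single vector array, or Notch1 L1601P+∆P replicate 1 or 2, lost all 3 (highest adjusted p = 0.139, 0.0828 and 0.133). The higher call of CCND1 was lost under 3, without vector replicate 1 or Notch1 L1601P+∆P replicate 1 or 2 (highest adjusted p = 0.0745). Medians of the 15 genes were 0.85, 0.34 and 0.06 in the order of the constructs above. The highest differences were those of NRARP, a feedback regulator, at 4.43 with NICD and 2.18 with Notch1 L1601P+∆P, and of the repressor HEY2, at 3.69 with NICD. The related repressor HEY1 stood at 3.35 and the ligand JAG1 at 2.32 with NICD, while LFNG, which modifies Notch receptors, fell by 1.58.

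The genes whose pattern was most like that of OLFM4 were ranked by Pearson correlation over the 12 arrays, among 124 genes at least 2 higher with NICD than with vector. The groups differ strongly, so the correlation chiefly reflects 4 group means. The first 10 had r between 0.977 and 0.995, where the median of the 124 was 0.898. They were SERPINA3 (0.995), the matricellular protein CCN1 (0.994), the small GTPase RHOV (0.988), the elastase inhibitor PI3 (0.987), the serpin SERPINB4 (0.986), LURAP1L (0.985), the surface peptidase MME (0.980), the serpin SERPINB3 (0.979), the Notch target HES4 (0.978) and IGFL1 (0.977). By Spearman correlation 3 of the same 10 genes were among the first 10. The highest correlation of another family member with OLFM4 was 0.66, for OLFML3.

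All 10 were lower in amplitude than OLFM4, but they started from higher vector levels. Vector means were 4.89 for SERPINB4 and 11.99 for PI3, against 3.62 for OLFM4. The highest signal on any array was 15.01, so bright genes had less room to rise. SERPINA3 read 14.50, 14.46 and 14.41 with NICD, 13.28, 13.31 and 13.24 with Notch1 L1601P+∆P, and 11.41, 11.38 and 11.30 with full-length Notch1, against 10.93, 10.78 and 10.73 with vector. CCN1 had means of 11.97 with NICD, 11.05 with Notch1 L1601P+∆P and 9.28 with full-length Notch1, against 8.75 with vector. Both showed 4 separate levels in the order of OLFM4, as did RHOV, PI3, LURAP1L, MME, HES4 and IGFL1. Of the 10, however, limma called the difference between full-length Notch1 and vector for SERPINA3 only. The limma adjusted p was 0.0682 for CCN1 and 0.872 or more for the rest. In SERPINB4 and SERPINB3 the full-length Notch1 and vector arrays overlapped. The share of all genes with such levels was not counted. SERPINB4 had the widest span of the 10, with 4.82 between NICD and vector. HES4 had the narrowest, with 2.03. These genes were chosen on the values given, which are therefore a description.

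**Figure D5:**
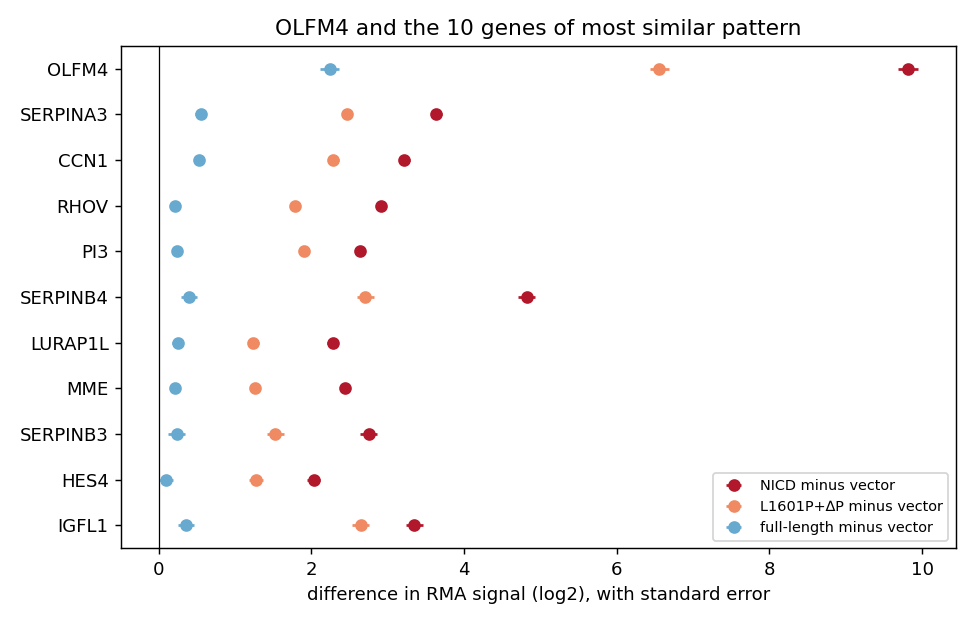
Difference from vector (log2, horizontal axis, with standard error) for OLFM4 and the 10 genes of highest Pearson correlation with it. Points are NICD, Notch1 L1601P+∆P and full-length Notch1; OLFM4 spans 9.81, 6.56 and 2.24, and SERPINA3 3.64, 2.47 and 0.55.

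The promoter windows of these genes were searched with the same motifs. Windows were available for 8 of the 10, and those of 4, SERPINA3, LURAP1L, MME and HES4, held the RBPJ core, against 28.1% of 27305 genes. The longer form was in the window of HES4, against 7.62% of genes. Of the 7 family genes with a window, 3 held the core and 2, OLFM3 and OLFM4, the longer form.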

How the data were processed

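RNA of MCF-10A cells was measured on Affymetrix arrays in 4 groups of 3. The authors deposited 1 log2 RMA value per probe set and array (54675 probe sets); RMA and limma are named in the submitters' processing notes, with versions not given in the sources used here. Here limma 3.58.1 in R 4.3.3 was fitted with group means on all 12 arrays and 54613 probe sets, leaving out 62 array controls, with Benjamini-Hochberg adjustment within each comparison and two-sided tests. The platform annotation gave 1 symbol to 41091 probe sets, several to 1801 and none to 11721. Genes of lists were read on the probe set of highest mean. Named genes were all members, the domain relatives and the OLFM4 partners and regulators, up to 4 called genes a direction of each other list, and the 10 genes of highest Pearson correlation with OLFM4 among those at least 2 higher (log2) with NICD than with vector; LGR5 and the chromosome neighbours were added after values were seen. The members and lists were chosen with earlier results of these data known. In simulated data with 54613 probe sets for NICD against vector, 93 of 100 log2 changes of 1 and 100 of 100 of 2 were recovered. Far fewer probe sets were changed there than were called in the data. Changes as small as those of the other members were not simulated, so their recovery is not known. Alternatives were cyclic loess, no dim probe sets, 1 probe set a gene, an intensity trend, a replicate block, the compared groups only, and leaving out each array. Another background correction was not run, since scanner files were not used here. Tables were handled in Python 3.11.15.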

Additional observations from a re-analysis of the deposited data

How the results depend on the processing

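The 6 OLFM4 differences kept their direction under all 108 alternative values, and leaving out 1 array gave 9.71 to 9.97 for NICD against vector, 6.46 to 6.71 for Notch1 L1601P+∆P and 2.14 to 2.39 for full-length Notch1. The count of other member probe sets called for NICD against full-length Notch1, 1, was 0 without dim probe sets, where 1 of the 10 probe sets was left and OLFML3 was not tested. Leaving out 1 array gave counts of 0 to 1 for NICD against vector, 0 to 1 for NICD against Notch1 L1601P+∆P and 1 to 2 for NICD against full-length Notch1, the higher counts without NICD replicate 2. Of 555 alternative member differences, 18 turned sign, none of them called: 1 OLFM1 probe set for Notch1 L1601P+∆P against vector was -0.004 after cyclic loess. Leaving out 1 array gave, with NICD against vector, -0.16 to 0.05, -0.14 to 0.22 and -0.18 to 0.09 for the OLFM1 probe sets and -0.03 to 0.16 for 1 OLFM3 probe set. With Notch1 L1601P+∆P against vector it gave -0.09 to 0.05 for OLFML2B and -0.004 to 0.08 for OLFML3. With full-length Notch1 against vector it gave -0.02 to 0.17 and -0.21 to 0.03 for OLFM1, -0.02 to 0.06 for OLFM3 and -0.05 to 0.08 for OLFML1. The cause was not tested. Of 1512 alternative counts over the gene lists, 82 moved by over 1.5 times, among them the retinoid genes called lower with NICD, 3, which were 5 without dim probe sets, with 1 probe set a gene and with the intensity trend.

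Counts over all probe sets moved more. Against 1307 called for Notch1 L1601P+∆P against vector, 2247 were called without dim probe sets, 2245 with an intensity trend, 820 with only the groups compared, and 711 to 1426 without 1 array. For full-length Notch1 against vector, 6 became 10 without dim probe sets and 29 with the trend. For Notch1 L1601P+∆P against full-length Notch1, 892 became 1585, 1666 and 521 under the same first 3 settings, and 439 to 959 without 1 array. With 1 probe set a gene, and so fewer tested, a separate fit and adjustment made 5460 calls, against 10565 with all probe sets, for NICD against vector, 3923 against 7124 for NICD against Notch1 L1601P+∆P and 5346 against 9958 for NICD against full-length Notch1. The higher share of NICD calls against vector was 34.9%, and 49.1% after cyclic loess. That share was 46.1% and 57.8% for Notch1 L1601P+∆P against vector, 39.2% and 51.2% for NICD against full-length Notch1, and 56.6% and 67.1% for Notch1 L1601P+∆P against full-length Notch1. Without dim probe sets and with the intensity trend it was 33.5% and 35.1% for Notch1 L1601P+∆P against vector, and 41.3% and 39.7% for Notch1 L1601P+∆P against full-length Notch1. Residuals of same-numbered arrays correlated at -0.2 to 0.24 and those of other pairs at -0.24 to 0.22. The labels do not say whether same-numbered arrays were handled together. Residuals centred within groups of 3 cannot decide it, so pairing remains unknown. The replicate block gave 0, 0, 0, 0, 1 and 0 other member calls and 9775 calls over all probe sets for NICD against vector.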
